A study of Drosophila melanogaster with 32 samples.

Results

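RNA bound to tagged ribosomes was compared between ato mutant and wild-type larval brains of Drosophila melanogaster, over all genes of 1 deposited count table. The comparison took the runs labelled as ribosome immunoprecipitates (IP), 16 of the 32 runs of the series. The 4 runs of each replicate were summed, which gave 2 ato IP libraries and 2 wild-type IP libraries out of 8 libraries in all. In every preparation, ato and wild type alike, the driver ipcGal4 expressed UASRpl10Ab::GFP, the ribosomal protein gene RpL10Ab fused to GFP. The ato preparations carried the allele ato1 in addition, described in the labels as ato loss of function, and the zygosity is not given in the sources used here. Each preparation pooled 500 brains of larvae of instar 3 raised at 25 degrees, of which 10% of the homogenate became the input library and the remainder was precipitated with antibodies to GFP. The submitters name T4 and T5 neurons as the cells that carry the tag. Which other cells the driver reaches is not given in the sources used here, and the precipitate holds the ribosomes of every cell that made the tagged protein. The comparison asks which transcripts on these ribosomes differed when ato function was lost.

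Atonal, the product of ato, is a basic helix-loop-helix transcription factor of the proneural class, which commits cells to neural fates. In the eye disc it selects the founder photoreceptor R8 of each ommatidium, in sense organs it specifies stretch receptors, and in the optic lobe it is expressed in progenitors of the inner proliferation center, from which the motion-detecting T4 and T5 neurons arise. Photoreceptor axons grow from the eye disc into the brain, where they deliver Hedgehog and the EGF receptor ligand Spitz to the lamina, the outermost optic neuropil. Notch signalling, which acts beside proneural factors in all these tissues, switches on the genes of the Enhancer of split complex.

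The ato IPs held 8086583 and 8084872 counts while the wild-type IPs had 8904370 and 7780123. The 4 input libraries ranged between 8193052 and 12238648 counts. All levels are CPM, counts scaled to library size after TMM normalization. Differences were tested with edgeR's quasi-likelihood test in 1 model of 4 groups, over 10224 of 14161 genes that passed the filter on low counts, and a gene was called where its Benjamini-Hochberg adjusted p was below 0.05. Changes are log2 of ato IP over wild-type IP with their standard error (SE), n = 2 libraries per group. The labels number the replicates and do not say whether they were separate batches of animals, so the p-values measure the spread between these libraries only. By a chi-square on counts, in which genes with many reads weigh most, replicates differed more in the wild-type IPs (31.3 per degree of freedom) than in the ato IPs (17.1). On log2 CPM the order was the other way, with a correlation across genes of 0.963 between the wild-type IPs and 0.9584 between the ato IPs. Which group was the noisier therefore depends on the measure.

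The ato transcript was not called between the IPs. It had 13.3 and 11.1 CPM in the ato IPs, against 12.7 and 17.2 CPM in the wild-type IPs, at chr3R:4103514-4104996 in dm3. The groups overlapped, and the log2 change was -0.29 ± 0.30 (edgeR adjusted p = 0.7). Because ato1 is a mutation of the protein-coding sequence, the amount of transcript is no check of the genotype. RpL10Ab, whose counts include any reads of the tagged copy, had 2655 and 3463 CPM in the ato IPs, against 2189 and 3487 CPM in the wild-type IPs, also overlapping (0.11 ± 0.21, adjusted p = 0.862), and its small change turned negative without ato IP replicate 2 (-0.06) or wild-type IP replicate 1 (-0.19). Transcripts of all 8 factors that mark T4 and T5 neurons were detected in the 4 IP libraries, from acj6, a POU homeobox gene, at 7.70 to 10.9 CPM, to bi, a T-box gene, at 146 to 204 CPM. Markers of other cells were also present, among them the glial gene repo at 42.4 to 64 CPM and the muscle myosin gene Mhc at 22.4 to 159 CPM.

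Between the IPs, 288 genes were higher in ato (2.82% of those tested) and 192 were lower (1.88%), 4.69% in all. Libraries that did not overlap were far more common than calls, since both ato values were above both wild-type values for 21.7% of tested genes and below both for 23.8%. Lack of overlap was also a condition for naming the largest changes, so for those genes it is no further support. The median log2 change over all genes tested was -0.03. Of the genes called higher 228 differed at least 2-fold, and of those called lower 89 did. The gains included enzymes of glycolysis, and some of the heat shock genes and markers of glia and muscle. The losses included some of the photoreceptor, Enhancer of split and ecdysone response genes. Each of these lists also held members that were not called, and 8 of 16 glial markers had negative changes. In a bulk preparation, fewer cells of a type and less RNA per cell cannot be told apart, and this holds for every gene described here. Without ato IP replicate 2 the counts were 179 higher and 55 lower, and with the 4 IP libraries fitted alone they were 267 and 114.

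**Figure D1:**
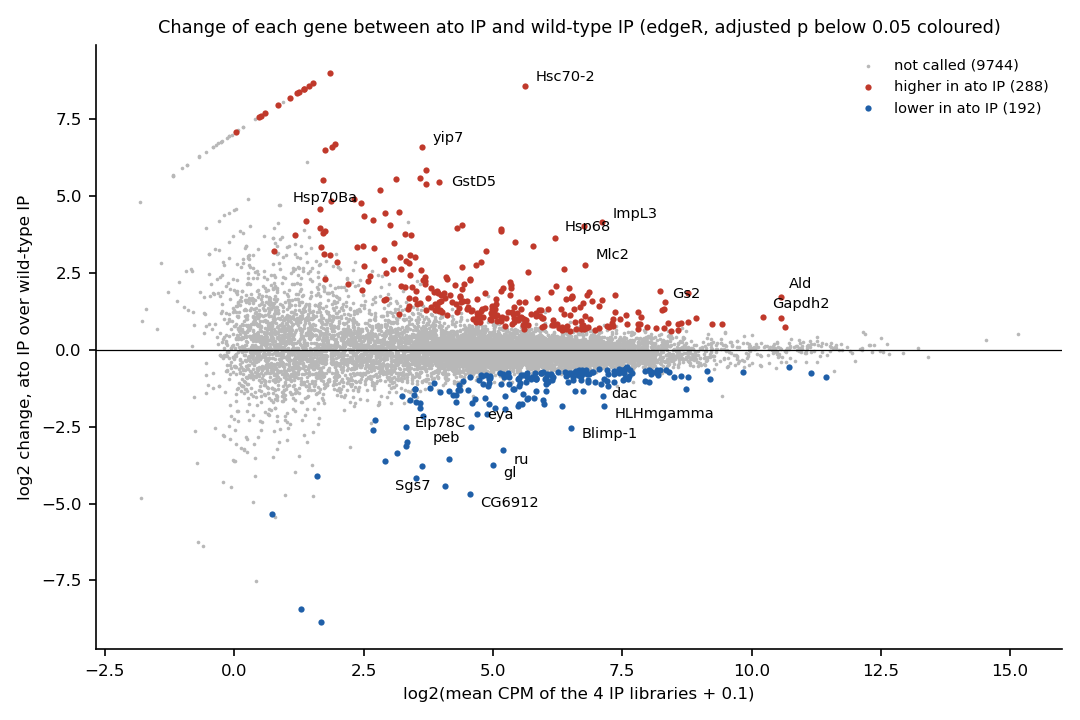
Log2 change of each tested gene, ato IP over wild-type IP (vertical), against log2 of its mean CPM over the 4 IP libraries plus 0.1 (horizontal), with genes called by edgeR in red (288 higher) and blue (192 lower). The points on a straight line at the upper left are genes with 0 counts in both wild-type IPs, whose height depends on the fit and is no measured fold.

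Several genes of the developing retina, 6 of 17 tested, were lower in the ato IPs. The glass gene gl, a zinc finger transcription factor of photoreceptor precursors at chr3R:14193649-14198460, had 3.68 and 5.22 CPM in the ato IPs, against 64.6 and 54.5 CPM in the wild-type IPs. Every ato value lay far under both wild-type values, and the level was 13.4-fold lower (-3.74 ± 0.27, adjusted p = 3.83e-07). For eya, a retinal determination gene at chr2L:6527449-6546972, the libraries had 17.4 and 25.6 CPM in the ato IPs, against 83.8 and 63.1 CPM in the wild-type IPs, again without overlap (-1.77 ± 0.23, adjusted p = 0.000146). The peb gene, a zinc finger gene at chrX:4511602-4520251 that acts in photoreceptor recruitment, was at 6.26 and 7.70 CPM in the ato IPs, against 41.2 and 39.3 CPM in the wild-type IPs (-2.53 ± 0.29, adjusted p = 3.85e-05). Its groups did not overlap, and the replicates of each group were close together. Of 18 photoreceptor and retinal determination genes listed, 17 passed the filter, and 6 of them fell while 0 rose, with a median log2 change of -0.86 against -0.03 for all genes. Beside gl and eya these were danr (-1.02 ± 0.19), dan (-0.93 ± 0.24), both antennal and eye nuclear factors, the homeobox gene ro (-2.27 ± 0.50) and the adhesion gene hbs (-0.86 ± 0.19), with adjusted p between 0.00343 and 0.0354. Members that were not called included lz (-1.52), chp (-1.13) and so (-0.93) on the negative side, and ey (0.01), sev (0.20) and norpA (-0.14) near 0. The marker of all neurons elav, counted in the same list, was not called (-0.44). The list had 3 members lower without ato IP replicate 1 and 4 without ato IP replicate 2. The call of ro ended with limma-voom (adjusted p = 0.0539), with run L1 alone (0.169), without ato IP replicate 1 (0.0843) and without wild-type IP replicate 2 (0.0862), that of hbs without ato IP replicate 1 (adjusted p = 0.104), without ato IP replicate 2 (0.109) and without wild-type IP replicate 1 (0.0541), and that of dan with the 4 IP libraries fitted alone (adjusted p = 0.0753), with run L1 alone (0.338), without ato IP replicate 1 (0.251), without ato IP replicate 2 (0.0843) and without wild-type IP replicate 1 (0.165).

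In the EGF receptor pathway the genes that fell encode the ligand Spitz, a protease that releases such ligands and a nuclear repressor. The gene ru encodes a rhomboid-family protease that releases EGF receptor ligands, and lies at chr3L:1370620-1387435. It had 9.57 and 4.35 CPM in the ato IPs, against 62.0 and 70.7 CPM in the wild-type IPs. The ato libraries were low in both replicates, with no overlap, and the log2 change was -3.25 ± 0.34 (adjusted p = 2.26e-05). The ligand gene spi itself had 232 and 278 CPM in the ato IPs, against 478 and 466 CPM in the wild-type IPs (-0.89 ± 0.16, adjusted p = 0.00318), and aop, the ETS repressor that the pathway inactivates, had 144 and 120.2 CPM in the ato IPs, against 242 and 271 CPM in the wild-type IPs (-0.96 ± 0.17, adjusted p = 0.00238). Both differences were without overlap but under 2-fold. In all, 3 of 17 pathway genes fell and 0 rose, with a median of -0.38, and the receptor gene Egfr (-0.67) and the nuclear effector gene pnt (-0.33) were not called. The call of spi was lost without ato IP replicate 1 (adjusted p = 0.0571), and that of aop without ato IP replicate 2 (adjusted p = 0.0606).

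Of 12 transcripts of the Enhancer of split complex, which Notch activates, 7 were lower in the ato IPs. The bHLH repressor gene HLHmgamma, at chr3R:21825580-21826421, had 57.5 and 67.3 CPM in the ato IPs, against 200.5 and 239.7 CPM in the wild-type IPs. Both ato values lay well below both wild-type values, and the log2 change was -1.82 ± 0.18 (adjusted p = 1.6e-05). Its neighbour HLHmdelta had 5.03 and 4.10 CPM in the ato IPs, against 17.3 and 23.6 CPM in the wild-type IPs (-2.16 ± 0.36, adjusted p = 0.00172). For malpha, of the Bearded family of small Notch pathway proteins, the libraries had 50.3 and 70.3 CPM in the ato IPs, against 122 and 185 CPM in the wild-type IPs (-1.35 ± 0.22, adjusted p = 0.00154). No ato library reached a wild-type one in either gene. The other members called were HLHm3 (-1.05 ± 0.22, adjusted p = 0.00767), the gene deposited as E(spl) (-1.05 ± 0.22, 0.00811), m2 (-0.89 ± 0.20, 0.013) and m4 (-1.08 ± 0.25, 0.0172). So 7 of 12 members fell and 0 rose, with a median of -1.03. The bHLH genes HLHm7 (-1.0), HLHm5 (-0.79) and HLHmbeta (-0.40) were not called, nor were m6 (0.14) and m1, the 2 members with a positive change. The protease inhibitor gene m1 moved against the rest of the list. It had 1.96 and 5.34 CPM in the ato IPs, against 0.637 and 0 CPM in the wild-type IPs (3.36 ± 1.04, adjusted p = 0.0794), and in the inputs it was called higher (5.92 ± 1.11, adjusted p = 0.00273). Between the IPs m1 was called higher with the DESeq2 Wald test (0.0133), with no filter (0.00224), without ato IP replicate 1 (0.0441), wild-type IP replicate 1 (0.0268), wild-type input replicate 1 (0.0315) or wild-type input replicate 2 (0.0314). The upstream Notch pathway had 1 of 20 genes lower, kuz, which encodes the metalloprotease that cleaves Notch (-0.66 ± 0.18, adjusted p = 0.0426), and the receptor gene N (-0.35) and ligand gene Dl (-0.54) were not called. The count of 7 was 3 without ato IP replicate 1 and 4 without wild-type IP replicate 2. Single calls were lost for HLHm3 without ato IP replicate 1 (adjusted p = 0.0604) and without wild-type IP replicate 2 (0.0852), for E(spl) without ato IP replicate 1 (adjusted p = 0.107), for m2 without ato IP replicate 1 (adjusted p = 0.121), without ato IP replicate 2 (0.0681) and without wild-type IP replicate 2 (0.0607), and for m4 with run L1 alone (adjusted p = 0.133), without ato IP replicate 1 (0.123), without ato IP replicate 2 (0.0808) and without wild-type IP replicate 2 (0.134). The kuz call held without ato IP replicate 1 or ato input replicate 2 and was lost without any 1 of the other 6 libraries, with adjusted p from 0.0505 to 0.491, and also with DESeq2 size factors (0.0568), with run L1 alone (0.0916) and with the 4 IP libraries fitted alone (0.118).

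Among the factors of T4 and T5 neurons, dac and grn fell. The nuclear factor gene dac, at chr2L:16466510-16485984, had 91.5 and 80.9 CPM in the ato IPs, against 203 and 168 CPM in the wild-type IPs. The groups were apart by more than the spread within either (-1.11 ± 0.18, adjusted p = 0.00125). The GATA factor gene grn lies at chr3R:3973075-4007164, within 1 Mb of ato, and effects of ato1 and of variants linked to it cannot be told apart. The grn levels were 31.4 and 24.5 CPM in the ato IPs, against 75.0 and 89.3 CPM in the wild-type IPs (-1.56 ± 0.25, adjusted p = 0.00128), also without overlap. Both calls held under every alternative tried. The other 6 factors were not called, at -0.59 ± 0.22 for the Sox gene Sox102F, -0.50 ± 0.18 for AP-2, -0.38 ± 0.41 for acj6, -0.22 ± 0.18 for bi and -0.19 ± 0.20 for SoxN, beside ato. All 8 changes were negative, with a median of -0.44, and that of SoxN turned to 0.06 without ato IP replicate 2.

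Lists that share these genes were read beside them. Of 12 lamina neuron genes 4 fell, which were eya, dac, sim (-1.63 ± 0.43), a bHLH-PAS gene, and tll (-0.86 ± 0.23), an orphan nuclear receptor gene, with a median of -0.72. The temporal factors of distal inner proliferation center neuroblasts had 2 of 8 lower, dac and tll, and those of medulla neuroblasts 3 of 14, tll and the paired BarH homeobox genes B-H2 and B-H1. B-H2 had 19.9 and 8.20 CPM in the ato IPs, against 55.9 and 47.6 CPM in the wild-type IPs (-1.88 ± 0.35, adjusted p = 0.00387), and B-H1 had 12 and 10.9 CPM in the ato IPs, against 28.8 and 27.6 CPM in the wild-type IPs (-1.29 ± 0.27, 0.0078). Neither gene overlapped between groups, and the ato libraries differed more from each other for B-H2 than for B-H1. Of 10 proneural genes tested, 1 fell, the achaete-scute complex gene sc, with 32.5 and 23.1 CPM in the ato IPs, against 57.8 and 66.6 CPM in the wild-type IPs (-1.16 ± 0.23, adjusted p = 0.00545). Without ato IP replicate 2 the calls of sim (adjusted p = 0.341), tll (0.256), B-H2 (0.0587), B-H1 (0.0871) and sc (0.119) were lost, which left 2 lamina genes, 1 distal inner proliferation center gene and 0 medulla genes. Without wild-type IP replicate 2 the lamina list also had 2, since sim (0.054) and tll (0.175) were lost. The call of sim ended without wild-type IP replicate 1 too (0.156), and that of tll without ato IP replicate 1 (0.153), wild-type input replicate 1 (0.066) or wild-type input replicate 2 (0.0669). With run L1 alone the calls of sim (0.207), tll (0.478) and B-H1 (0.0732) were lost, and with the 4 IP libraries fitted alone those of sim (0.0619) and tll (0.0937). For tll the call was also lost with DESeq2 size factors (0.0571) and with limma-voom (0.071).

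The ecdysone response genes, which the moulting hormone induces toward metamorphosis, were lower in part. The nuclear receptor gene Eip78C, at chr3L:21220019-21257721, had 11.2 and 8.32 CPM in the ato IPs, against 40.4 and 43.2 CPM in the wild-type IPs. Neither ato library came near a wild-type one (-2.10 ± 0.28, adjusted p = 0.000159). The ETS factor gene Eip74EF had 105 and 77.9 CPM in the ato IPs, against 198 and 214 CPM in the wild-type IPs (-1.17 ± 0.19, adjusted p = 0.00125), and Eip75B, another nuclear receptor gene, had 303 and 259.6 CPM in the ato IPs, against 498 and 520.0 CPM in the wild-type IPs (-0.86 ± 0.16, adjusted p = 0.00361). In both, ato libraries were below wild-type libraries throughout. In total 8 of 21 tested members fell, among them ImpE2 (-1.05 ± 0.20), an ecdysone-inducible disc gene, and the zinc finger gene br (-0.94 ± 0.21), also Hr39 (-0.78 ± 0.20), ImpE3 (-1.16 ± 0.30) and Eip93F (-0.76 ± 0.19), with adjusted p of these 5 between 0.00511 and 0.033. The median was -0.38. One member rose, ImpL3, which is the lactate dehydrogenase gene and is described with glycolysis below. The receptor genes EcR (-0.12) and usp (-0.08) were not called. Uncalled members with positive changes were ImpL1 (1.92, adjusted p = 0.0933), the nuclear receptor gene Hr38 (1.58, 0.123), the ecdysone-degrading enzyme gene Cyp18a1 (1.42, 0.258), the nuclear receptor gene ftz-f1 (0.86, 0.21) and ImpL2 (0.41). At an unadjusted p below 0.05, 6 members were higher and 10 lower, and the DESeq2 Wald test called 2 higher. In the inputs 3 members were called higher and 6 lower. Leaving out ato IP replicate 2 left 2 members lower, Eip78C and Eip74EF, and the adjusted p of the other 6 was 0.0906 for Eip75B, 0.088 for ImpE2, 0.218 for br, 0.363 for Hr39, 0.293 for ImpE3 and 0.407 for Eip93F. Without wild-type IP replicate 2 there were 5, since Hr39 (0.128), ImpE3 (0.127) and Eip93F (0.153) were lost, and with the 4 IP libraries fitted alone there were also 5. The call of br ended without wild-type IP replicate 1 (0.109) and that of ImpE3 without ato IP replicate 1 (0.0501). ImpE3 also lost its call with limma-voom (0.0538) and with run L1 alone (0.126), Hr39 with run L1 alone (0.0517), and both Hr39 (0.0559) and Eip93F (0.0625) with the length correction.

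Blimp-1, a transcriptional repressor gene that ecdysone induces, was also among the largest decreases. It had 36.9 and 16.9 CPM in the ato IPs, against 209 and 103 CPM in the wild-type IPs. The replicates differed about 2-fold in each group, and both ato values were under both wild-type values (5.80-fold lower, -2.54 ± 0.36, adjusted p = 0.000294). The salivary glue protein gene Sgs7, at chr3L:11502961-11503347, had 1.84 and 1.12 CPM in the ato IPs, against 34.3 and 29.6 CPM in the wild-type IPs (-4.42 ± 0.49, adjusted p = 3.01e-05). Of 7 glue genes tested it was the 1 called, and the reads of near-identical glue genes may be shared between them. The sum over the glue list was 7.73 and 10.6 CPM in the ato IPs, against 53.3 and 48.1 CPM in the wild-type IPs, and the part of larval age or of salivary tissue in these values was not tested.

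The remaining large decreases held genes with little annotation in the table. Among genes with no overlap and a wild-type mean of at least 10 CPM, CG6912 had the largest, with 2.21 and 1.24 CPM in the ato IPs, against 44.7 and 45.8 CPM in the wild-type IPs (26-fold lower, -4.70 ± 0.35, adjusted p = 5.35e-07). It lies at chr3R:10960860-10962702, and its neighbour CG3984 at chr3R:10962884-10964626 had 1.60 and 0.745 CPM in the ato IPs, against 27.8 and 14.9 CPM in the wild-type IPs (-4.17 ± 0.51, adjusted p = 0.000109). Both genes were close to absent from the ato IPs. Others were CG30101 (-3.78 ± 0.55), CG5653 (-3.62 ± 0.53), CG9150 (-3.54 ± 0.35), CG32572 (-3.36 ± 0.61), the villin-like actin-binding gene qua (-3.12 ± 0.47), the ionotropic receptor gene Ir76a (-3.0 ± 0.50), CG18853 (-2.50 ± 0.44) and CG13858 (-2.59 ± 0.50), with adjusted p between 1.3e-05 and 0.0053. Calls were lost for CG32572 with run L1 alone (adjusted p = 0.0996), for CG18853 with run L1 alone (adjusted p = 0.0558), and for CG13858 without ato IP replicate 2 (adjusted p = 0.0681) and without wild-type IP replicate 1 (0.0662).

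Among the called genes with the most reads the decreases were smaller. The noncoding RNA gene CR42862 had 1764 and 2171 CPM in the ato IPs, against 3764 and 3453 CPM in the wild-type IPs (-0.88 ± 0.18, adjusted p = 0.00846), and the cyclin gene CycG had 1469 and 1901 CPM in the ato IPs, against 3056 and 2681 CPM in the wild-type IPs (-0.77 ± 0.19, adjusted p = 0.0234). In both, the lower wild-type library was well above the higher ato library. CG3800, which encodes a nucleic acid binding zinc finger protein, had 1403 and 1345 CPM in the ato IPs, against 2028 and 2018 CPM in the wild-type IPs (-0.56 ± 0.15, adjusted p = 0.0483), and CG8929 changed by -0.72 ± 0.20 (adjusted p = 0.0476). The calls of CR42862 and CycG were lost without ato IP replicate 1 (adjusted p = 0.101 and 0.214), and CycG also with the 4 IP libraries fitted alone (0.0703). CG3800 kept its call without either ato input but lost it without any 1 of the other 6 libraries (0.0552 to 0.344). It was also lost with DESeq2 size factors (0.0754), the 5 CPM filter (0.0524), run L1 alone (0.0565), the replicate number as a block (0.0547) and the 4 IP libraries fitted alone (0.172). CG8929 kept its call without wild-type IP replicate 2 or ato input replicate 2 and lost it without any other library (0.0571 to 0.376), with DESeq2 size factors (0.0649), the 5 CPM filter (0.0524), limma-voom (0.05) and the 4 IP libraries fitted alone (0.149). The cell cycle genes had 1 of 37 lower and 1 higher, near the shares over all tested genes (1.88% lower and 2.82% higher). The lower gene was the CDK inhibitor gene dap, with 101 and 109 CPM in the ato IPs, against 193 and 246 CPM in the wild-type IPs (-1.06 ± 0.19, adjusted p = 0.00229). One was higher, the Aurora B kinase gene ial (0.66 ± 0.17, adjusted p = 0.0366), a call lost with the 4 IP libraries fitted alone (adjusted p = 0.0805), with run L1 alone (0.078), without ato IP replicate 1 (0.0993), without ato IP replicate 2 (0.145), without wild-type IP replicate 1 (0.174), without wild-type input replicate 1 (0.0694) and without wild-type input replicate 2 (0.0676). Of 14 apoptosis genes W, the cell death activator gene also known as hid, fell (-1.0 ± 0.21, adjusted p = 0.00924), and this was lost without ato IP replicate 2 (adjusted p = 0.187) and without wild-type IP replicate 2 (0.0615).

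**Figure D2:**
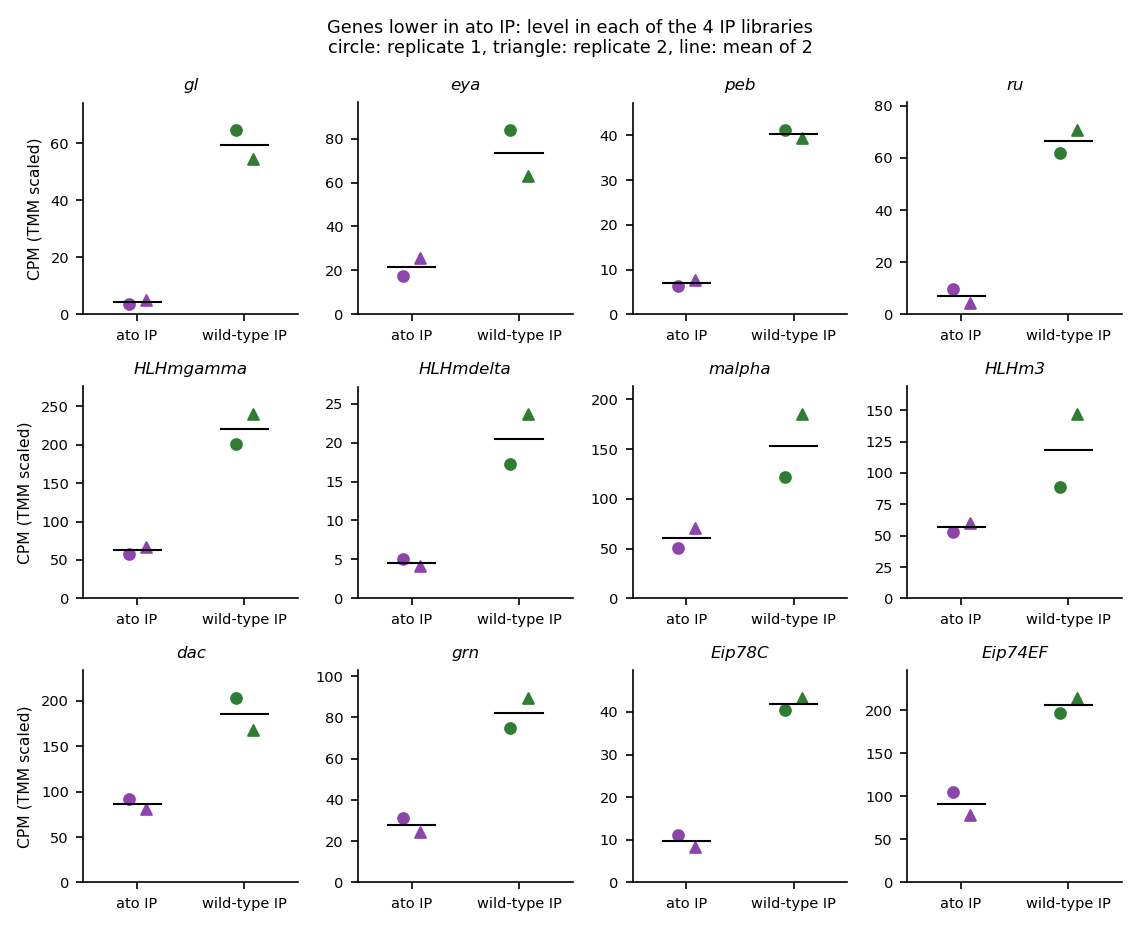
CPM (vertical, linear from 0) of 12 genes called lower in the ato IPs, in each of the 2 ato IP and 2 wild-type IP libraries, with circles for replicate 1, triangles for replicate 2 and a line at the mean. In every panel both ato points lie under both wild-type points, as for gl at 3.68 and 5.22 CPM in the ato IPs against 64.6 and 54.5 CPM in the wild-type IPs. The largest decreases were named only where this held, and it held for 23.8% of all tested genes.

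Most enzymes of glycolysis were higher in the ato IPs. The list of these genes was added after their values had been seen. The lactate dehydrogenase gene ImpL3, named Ldh today and at chr3L:6252592-6255793, had 281 and 243 CPM in the ato IPs, against 12.6 and 17.0 CPM in the wild-type IPs. The ato libraries were above the wild-type libraries by more than 10-fold in every pairing (17.7-fold by the fit, 4.15 ± 0.23, adjusted p = 1.54e-08). The aldolase gene Ald, at chr3R:22080404-22087313, had 2064 and 2591 CPM in the ato IPs, against 718 and 689.8 CPM in the wild-type IPs (1.73 ± 0.17, adjusted p = 1.29e-05), and the phosphoglycerate mutase gene Pglym78 had 204 and 212 CPM in the ato IPs, against 65.7 and 70.8 CPM in the wild-type IPs (1.61 ± 0.16, adjusted p = 1.3e-05). In all 3 genes the replicates differed far less than the groups. The glyceraldehyde phosphate dehydrogenase gene Gapdh2 had 1560.4 and 1699 CPM in the ato IPs, against 753 and 786 CPM in the wild-type IPs (1.08 ± 0.16, adjusted p = 0.000404). Also called were Pgi (1.55 ± 0.18), Pfk (1.12 ± 0.19), Gapdh1 (1.03 ± 0.16), PyK (0.86 ± 0.15), Eno (0.85 ± 0.16) and the hexokinase gene Hex-A (0.76 ± 0.17), with adjusted p between 3.73e-05 and 0.0142. So 10 of 12 tested genes rose, 0 fell and the median was 1.06. The remaining genes, Tpi (0.48) and Pgk (0.38), were not called, and 2 of the 14 genes in the table did not pass the filter. Summed over the list, the ato IPs held 7571 and 8476 CPM and the wild-type IPs 3593 and 3484 CPM. The call of Eno was lost without ato IP replicate 2 (adjusted p = 0.0529), and that of Hex-A without ato IP replicate 1 (adjusted p = 0.0783) and without wild-type IP replicate 1 (0.058).

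Genes of glycogen turnover, a list also added after the values were seen, rose with them in 7 of 9 cases, with a median of 1.09. The glycogen phosphorylase gene GlyP had 674 and 693 CPM in the ato IPs, against 226 and 157 CPM in the wild-type IPs (1.84 ± 0.22, adjusted p = 5.92e-05). The phosphoglucomutase gene Pgm had 137 and 148 CPM in the ato IPs, against 45.7 and 38.9 CPM in the wild-type IPs (1.75 ± 0.19, adjusted p = 2.68e-05). In both, the ato libraries were about 3-fold or more above the wild-type libraries, with no overlap. The branching enzyme gene CG33138 (1.09 ± 0.20), the synthase gene CG6904 (0.92 ± 0.17), CG9485 (1.30 ± 0.35) and the genes CG9619 (1.4 ± 0.25) and CG9238 (0.92 ± 0.25) of glycogen-binding phosphatase subunits were called too, with adjusted p between 0.00238 and 0.0479. UGP (0.52) and Glycogenin (0.48) were not. The count was 4 without ato IP replicate 2, with adjusted p of 0.0576 for CG6904, 0.208 for CG9485 and 0.303 for CG9238. The call of CG9485 was also lost without ato IP replicate 1 (0.0603) or wild-type IP replicate 2 (0.211). That of CG9238 held only without an ato input, and was lost without any 1 of the other 6 libraries (0.0667 to 0.303).

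Heat shock genes were among the largest increases. Hsc70-2, a heat shock cognate gene at chr3R:8870481-8873112, had 94.2 and 101 CPM in the ato IPs, against 0 and 0.540 CPM in the wild-type IPs. It was nearly absent from the wild-type IPs, where its counts were 0 and 4 (edgeR log2 8.59 ± 0.54, adjusted p = 7.43e-08). CG31157, the gene next to it, had 25.9 and 25.0 CPM in the ato IPs, against 0.531 and 0.676 CPM in the wild-type IPs (5.38 ± 0.65, adjusted p = 6.59e-05). Hsp68, a stress-inducible chaperone gene, had 151 and 120.0 CPM in the ato IPs, against 16 and 5.13 CPM in the wild-type IPs (3.65 ± 0.33, adjusted p = 7.11e-06). All 3 genes stood far above their wild-type levels in both ato libraries. Hsp70Ba (5.20 ± 0.58, adjusted p = 3.85e-05) and Hsp70Bc (4.06 ± 0.56, 0.00025) were called, but the Hsp70 copies are nearly identical in sequence, so how reads were divided among them is uncertain. The co-chaperone gene stv (1.30 ± 0.20, 0.000774) and the small heat shock gene Hsp26 (1.30 ± 0.24, 0.00308) rose as well. Of 19 heat shock genes listed, 14 were tested, 6 rose, 1 fell (Hsp67Bc, -0.81 ± 0.22, adjusted p = 0.0469) and the median was 0.94. Hsc70-2 and Hsp70Ba, the latter with wild-type IP counts of 4 and 2, passed the filter on low counts through the ato libraries. The count and the median are therefore a description and do not stand for the list. Hsp70Aa (7.14 by the fit), Hsp83 (0.59), Hsp27 (-0.11), Hsp23 (-0.12) and the regulator gene Hsf (-0.05) were not called. Leaving out any 1 library gave 6 or 7 higher. Hsp67Bc lost its call with DESeq2 size factors (adjusted p = 0.0619), with the 5 CPM filter (0.0524), with limma-voom (0.0821), with the 4 IP libraries fitted alone (0.0973), without ato IP replicate 1 (0.107), without ato IP replicate 2 (0.297) and without wild-type IP replicate 2 (0.38).

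Detoxification genes rose in part. The glutathione S-transferase gene GstD5 had 22.7 and 37.3 CPM in the ato IPs, against 0.212 and 1.22 CPM in the wild-type IPs (5.46 ± 0.54, adjusted p = 1.3e-05). GstE1 had 63.4 and 68.3 CPM in the ato IPs, against 14.5 and 13.9 CPM in the wild-type IPs (2.21 ± 0.21, adjusted p = 9.88e-06). Neither gene overlapped between groups, and the replicates lay closer together for GstE1 than for GstD5. With GstD3 (1.65 ± 0.22), GstE2 (1.54 ± 0.27) and GstE6 (2.13 ± 0.52), 5 of 31 tested members of the family rose and 0 fell, with a median of 0.43. The adjusted p of these 3 lay between 0.000196 and 0.0243, and the DESeq2 Wald test, or the edgeR test with no filter, called 8 members. The members lie in clusters of similar sequence, so reads may be shared. GstD5 had counts of 2 and 9 in the wild-type IPs and passed the filter on low counts through the ato libraries. The count of 5 and the median are therefore a description and do not stand for the list. GstE6 lost its call with limma-voom (adjusted p = 0.07), with the 4 IP libraries fitted alone (0.0792), with run L1 alone (0.347), without ato IP replicate 2 (0.0962), without wild-type IP replicate 1 (0.0636) and without wild-type IP replicate 2 (0.0912). Of 49 cytochrome P450 genes tested 4 rose, Cyp28a5 (2.63 ± 0.46), Cyp9c1 (0.96 ± 0.19), Cyp4g15 (1.16 ± 0.26) and Cyp9f2 (1.12 ± 0.25), with a median of 0.58. Another 29 of the 78 listed did not pass the filter on low counts, so the median does not stand for the list. The call of Cyp4g15 was lost without ato IP replicate 2 (adjusted p = 0.197) and without wild-type IP replicate 1 (0.0771), and that of Cyp9f2 without ato IP replicate 2 (adjusted p = 0.109) and without wild-type IP replicate 2 (0.0949).

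Markers of glia, muscle and blood cells were higher in part of each list. The glutamine synthetase gene Gs2, a glial enzyme at chrX:11316888-11324228, had 455 and 454 CPM in the ato IPs, against 167 and 193 CPM in the wild-type IPs (2.53-fold higher, 1.34 ± 0.16, adjusted p = 7.63e-05). The GABA transporter gene CG1732, named Gat today, had 25.9 and 36.9 CPM in the ato IPs, against 8.28 and 10.8 CPM in the wild-type IPs (1.72 ± 0.29, adjusted p = 0.00161). Neither gene overlapped between genotypes. Of 16 glial markers 6 rose and 0 fell, the others being the sodium pump gene nrv2 (0.90 ± 0.18), the glutamate transporter gene Eaat1 (0.80 ± 0.18), the astrocyte gene CG11910, named alrm today (0.90 ± 0.21), and CG6126 (1.34 ± 0.36), and the median was 0.31. Their adjusted p was 0.00603, 0.0154, 0.0197 and 0.0444 in that order. The defining glial gene repo was not called, at 49.9 and 42.4 CPM in the ato IPs, against 64 and 47.6 CPM in the wild-type IPs. Of the 16 markers 8 had negative changes, among them the septate junction gene Gli (-0.88, adjusted p = 0.0852), the G protein regulator gene loco (-0.67, 0.0881), cv-c (-0.57, 0.0942), the glial fate gene gcm (-0.58, 0.477) and bnb (-0.35, 0.564). At an unadjusted p below 0.05, 8 markers were higher and 3 lower. Summed over the list, the ato IPs held 1876 and 2071 CPM and the wild-type IPs 1430.0 and 1418 CPM. The count was 2 without ato IP replicate 2, with adjusted p of 0.0946 for nrv2 and 0.154 for Eaat1. Eaat1 also lost its call without wild-type IP replicate 2 (0.0579), CG11910 without ato IP replicate 2 (adjusted p = 0.191) and without wild-type IP replicate 1 (0.0845), and CG6126 with limma-voom (adjusted p = 0.0792), with the 4 IP libraries fitted alone (0.0797), with run L1 alone (0.246), without ato IP replicate 1 (0.0501), without ato IP replicate 2 (0.291), without wild-type IP replicate 1 (0.0711) and without wild-type IP replicate 2 (0.172).

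Muscle genes differed between replicates as well as between genotypes. The myosin light chain gene Mlc2 had 243 and 140.2 CPM in the ato IPs, against 23.5 and 33.2 CPM in the wild-type IPs (2.76 ± 0.32, adjusted p = 3.85e-05), and Mlc1 had 174 and 111 CPM in the ato IPs, against 23.6 and 23.0 CPM in the wild-type IPs (2.62 ± 0.29, adjusted p = 3.01e-05). The replicate 1 library of ato was the higher in both, yet the lower ato value still exceeded the wild-type values several times. Of 14 tested muscle markers 7 rose and 0 fell, with Act57B (1.80 ± 0.28), Tm2 (1.66 ± 0.29), Mhc (1.87 ± 0.38), wupA (1.69 ± 0.37) and up (1.42 ± 0.37) beside these, and a median of 1.16. The adjusted p of these 5 lay between 0.00101 and 0.0335. Not called were Prm (0.89), bt (0.76), Mf (0.63), TpnC73F (0.32), sls (0.02), Tm1 (-0.09) and Act87E (-0.23). Summed over the list, the ato IPs held 2700 and 1537 CPM and the wild-type IPs 1369 and 1257 CPM. The count was 4 without ato IP replicate 1, with adjusted p of 0.166 for Mhc, 0.139 for wupA and 0.283 for up. The DESeq2 Wald test also did not call Mhc (0.0506) and wupA (0.0796), and up lost its call without wild-type IP replicate 1 (0.105) or wild-type IP replicate 2 (0.0604).

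Of 14 hemocyte and basement membrane markers 3 rose, which were the clotting gene Hml (1.56 ± 0.36), the collagen gene Cg25C (1.04 ± 0.27) and He (1.03 ± 0.28), with a median of 0.14 and list sums of 816 and 769 CPM in the ato IPs against 761 and 598 CPM in the wild-type IPs. The change of 6 others was negative, from lz (-1.52) and the scavenger receptor gene crq (-0.39) to srp (-0.27), nimC1 (-0.25), LanB2 (-0.22) and eater (-0.09), and none of these was called. Hml lost its call without ato IP replicate 1 (adjusted p = 0.0748) and without wild-type IP replicate 2 (0.0526), Cg25C with run L1 alone (adjusted p = 0.057), without ato IP replicate 1 (0.139), without ato IP replicate 2 (0.0821) and without wild-type IP replicate 2 (0.186), and He without ato IP replicate 2 (adjusted p = 0.259) and without wild-type IP replicate 1 (0.188). The transferrin gene Tsf1 was the 1 of 9 fat body markers that rose, with 306 and 203 CPM in the ato IPs, against 92.3 and 54.3 CPM in the wild-type IPs (1.79 ± 0.25, adjusted p = 0.000329). Both ato libraries were well above both wild-type libraries, and the list summed to 723 and 451 CPM in the ato IPs, against 328 and 181 CPM in the wild-type IPs. Of the 9 fat body markers 8 had positive changes and 1 a negative change, with a median of 1.30. At an unadjusted edgeR p below 0.05, 6 were higher and 0 lower, and in the inputs 4 were called higher and 0 lower. Without wild-type IP replicate 1 the count of fat body markers was 5, and without wild-type input replicate 1 or 2 it was 4. Whether the amount of glia, muscle, blood cells or fat body in the preparations had a part in the other changes was not tested.

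A few digestive protease genes reached some of the largest fitted changes, on low counts. The serine protease gene Jon65Aiv had 8.47 and 42.2 CPM in the ato IPs, against 0 and 0.946 CPM in the wild-type IPs (5.86 ± 0.95, adjusted p = 0.00129), and yip7, next to it, had 6.26 and 42.5 CPM in the ato IPs, against 0.424 and 0 CPM in the wild-type IPs (6.61 ± 1.12, adjusted p = 0.00209). The ato libraries differed about 5-fold or more from each other, with replicate 2 higher, and the SE of both changes was large. Jon25Bii had 0 counts in both wild-type IPs and 79 counts summed over the ato IPs, at least 27.2-fold higher against a floor of 3 counts summed over the group. Of 28 such genes listed, 8 were tested and 5 were called higher. No wild-type library held more than 1.35 CPM of any of the 8, which passed the filter on low counts through the ato libraries, so the count is a description and does not stand for the list. With limma-voom 0 of them were called, at adjusted p of 0.138 for Jon65Aiv and 0.263 for yip7, the DESeq2 Wald test called 2, the count was 2 without ato IP replicate 2, and 3 without wild-type IP replicate 1. The call of Jon25Bii was lost without ato IP replicate 2 (0.0907). The whole list summed to 29.9 and 129.7 CPM in the ato IPs, against 2.97 and 4.32 CPM in the wild-type IPs. Other large increases by the fit were CG7715 (5.58 ± 0.71), CG17134 (5.55 ± 1.27), CG14265 (4.79 ± 0.95), CG15213 (4.47 ± 0.95), CG7017 (4.46 ± 0.96), CG14572 (4.37 ± 0.96) and Jon65Aiii (4.24 ± 0.97). The DESeq2 Wald test did not call CG17134 (adjusted p = 0.122), CG15213 (0.203), CG7017 (0.325) or Jon65Aiii (0.129), nor Jon65Aiv above (0.0624). Limma-voom did not call CG7715 (0.0562), CG17134 (0.301), CG14265 (0.0771), CG7017 (0.0881) or Jon65Aiii (0.174). With run L1 alone CG14265 (0.0532) and CG14572 (0.053) were not called. All 7 lost their call under at least 1 alternative, limma-voom (0.0562) for CG7715, omission of ato IP replicate 1 for CG17134 (0.223) and CG14265 (0.056), and omission of ato IP replicate 2 for CG15213 (0.0788), CG7017 (0.088), CG14572 (0.0857) and Jon65Aiii (0.275). CG17134 was also lost without wild-type IP replicate 2 (0.0532) and Jon65Aiii without wild-type IP replicate 1 (0.0576).

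**Figure D3:**
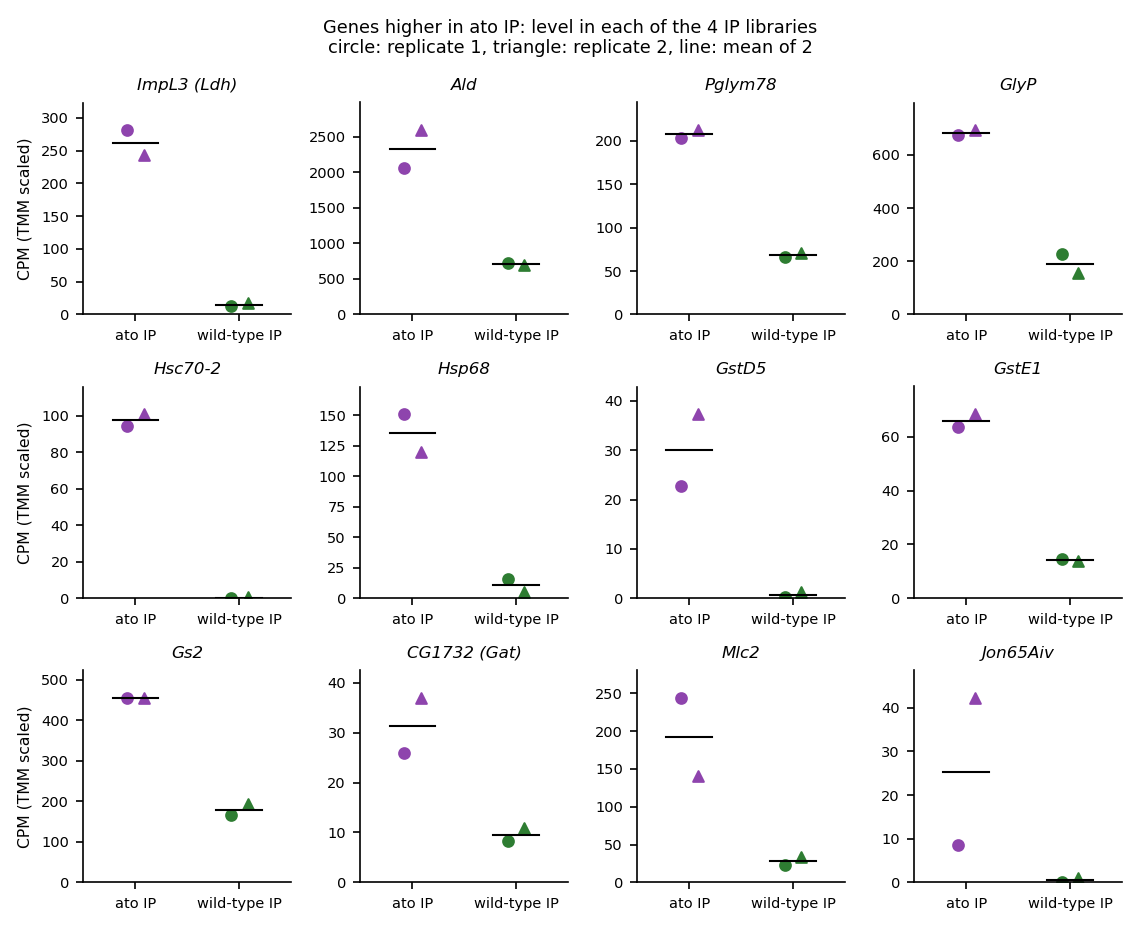
CPM (vertical, linear from 0) of 12 genes called higher in the ato IPs, in each of the 2 ato IP and 2 wild-type IP libraries, with circles for replicate 1, triangles for replicate 2 and a line at the mean. Both ato points exceed both wild-type points in every panel, but the ato replicates of Mlc2 (243 and 140.2 CPM) and Jon65Aiv (8.47 and 42.2 CPM) lie far apart. The largest increases were named only where the groups did not overlap in this way, which held for 21.7% of all tested genes.

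Of 15 genes of neurotransmitter synthesis and transport 2 rose, the tryptophan hydroxylase gene Trh (1.64 ± 0.33, adjusted p = 0.00667) and the glutamate decarboxylase gene Gad1 (1.10 ± 0.25, 0.0142). Both were lost without ato IP replicate 2 (adjusted p = 0.119 for Trh and 0.193 for Gad1). Of 16 neuronal RNA-binding protein genes 2 rose, the splicing factor gene ps, with 257 and 239 CPM in the ato IPs, against 128 and 146 CPM in the wild-type IPs (0.85 ± 0.17, adjusted p = 0.00603), and Imp, a mRNA-binding protein gene of young neuroblasts, with 327 and 303 CPM in the ato IPs, against 167 and 209 CPM in the wild-type IPs (0.74 ± 0.17, adjusted p = 0.0132). These 2 were separated by more than the spread within groups, and the call of Imp was lost without ato IP replicate 1 (adjusted p = 0.0648) and without wild-type IP replicate 1 (0.0978). Of 18 neuroblast genes Imp rose and klu (-0.60 ± 0.16) and grh (-0.77 ± 0.20) fell, but neither decrease was called without ato IP replicate 2 (adjusted p = 0.248 and 0.486), wild-type input replicate 1 (0.0916 and 0.0568) or wild-type input replicate 2 (0.0901 and 0.0571). The call of klu was also lost without ato IP replicate 1 (0.199) or wild-type IP replicate 2 (0.162), and that of grh without wild-type IP replicate 1 (0.156) or ato input replicate 1 (0.0505). Both were lost with DESeq2 size factors, with run L1 alone and with the 4 IP libraries fitted alone as well. The axon guidance list had 1 of 42 genes lower, hbs, near the 1.88% called lower over all tested genes, and its median was -0.30. The Wingless pathway had 2 of 17 lower, Wnt2 (-1.11 ± 0.24, adjusted p = 0.0111) and nkd (-0.64 ± 0.18, 0.0485). Wnt2 lost its call with run L1 alone (adjusted p = 0.0846) and without ato IP replicate 1 (0.125), and nkd kept its call without ato IP replicate 1 or ato input replicate 2 and lost it without any 1 of the other 6 libraries, with adjusted p from 0.0539 to 0.501, and also with DESeq2 size factors (0.0634), the 5 CPM filter (0.0507) and the 4 IP libraries fitted alone (0.125).

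In several lists edgeR called 0 genes. These were the voltage-gated ion channels (0 of 19, median 0.07), synaptic vesicle and active zone genes (0 of 18, 0.10), nicotinic acetylcholine receptor subunits (0 of 10, -0.06) and the dpr, DIP, beat and side adhesion genes (0 of 54, -0.10). Also without a call were the Hedgehog (0 of 10, -0.26) and Dpp (0 of 12, -0.14) pathways, mitochondrial ribosomal proteins (0 of 72, 0.23), proteasome subunits (0 of 35, -0.14), the respiratory chain (0 of 30, 0.20), and markers of trachea (0 of 7, -0.39), ring gland (0 of 8, 0.08) and antimicrobial defence (0 of 7, 1.36). At an unadjusted p below 0.05 they held 0, 4, 2, 5, 3, 2, 7, 2, 4, 2, 2 and 1 genes in that order. The DESeq2 Wald test called 1 synaptic, 1 Dpp and 3 respiratory chain genes, limma-voom 1 Dpp gene, and these tools called 0 in the other lists. The hedgehog ligand gene hh had 17.1 and 10.2 CPM in the ato IPs, against 24.0 and 34.1 CPM in the wild-type IPs (-1.09 ± 0.31, adjusted p = 0.0513), just short of the threshold, with no overlap between groups. All 10 Hedgehog pathway changes were negative, and in the inputs 3 of these genes were called lower and 0 higher. Under alternatives other than omission of a library, 0 to 1 Hedgehog pathway genes were called lower between the IPs. Of 84 cytosolic ribosomal protein genes RpS5b rose (1.58 ± 0.33, adjusted p = 0.00813), which shares much of its sequence with RpS5a. This call was lost with run L1 alone (adjusted p = 0.368), without ato IP replicate 2 (log2 change 1.30) and without wild-type IP replicate 1 (1.45). Over all tested genes 2.82% were called higher, a larger share than the 1 among these 84 ribosomal protein genes. Without wild-type IP replicate 2 the count of these genes was 4, and the DESeq2 Wald test called 2. Ribosomal protein transcripts summed to 168498 and 185535 CPM in the ato IPs, against 136690.0 and 199371 CPM in the wild-type IPs, so the wild-type replicates lay furthest apart. The male-specific RNAs roX1, with 3845 and 3326 CPM in the ato IPs, against 4363 and 4837 CPM in the wild-type IPs (-0.36 ± 0.16, adjusted p = 0.236), and roX2, with 492 and 422 CPM in the ato IPs, against 467 and 816 CPM in the wild-type IPs (-0.49 ± 0.21, 0.233), were not called. For roX2 the groups overlapped, since ato replicate 1 was above wild-type replicate 1, and without wild-type IP replicate 1 it was called lower (-0.84, adjusted p = 0.008). At an unadjusted p below 0.05 both were lower, and the DESeq2 Wald test and limma-voom called 0 of them.

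**Figure D4:**
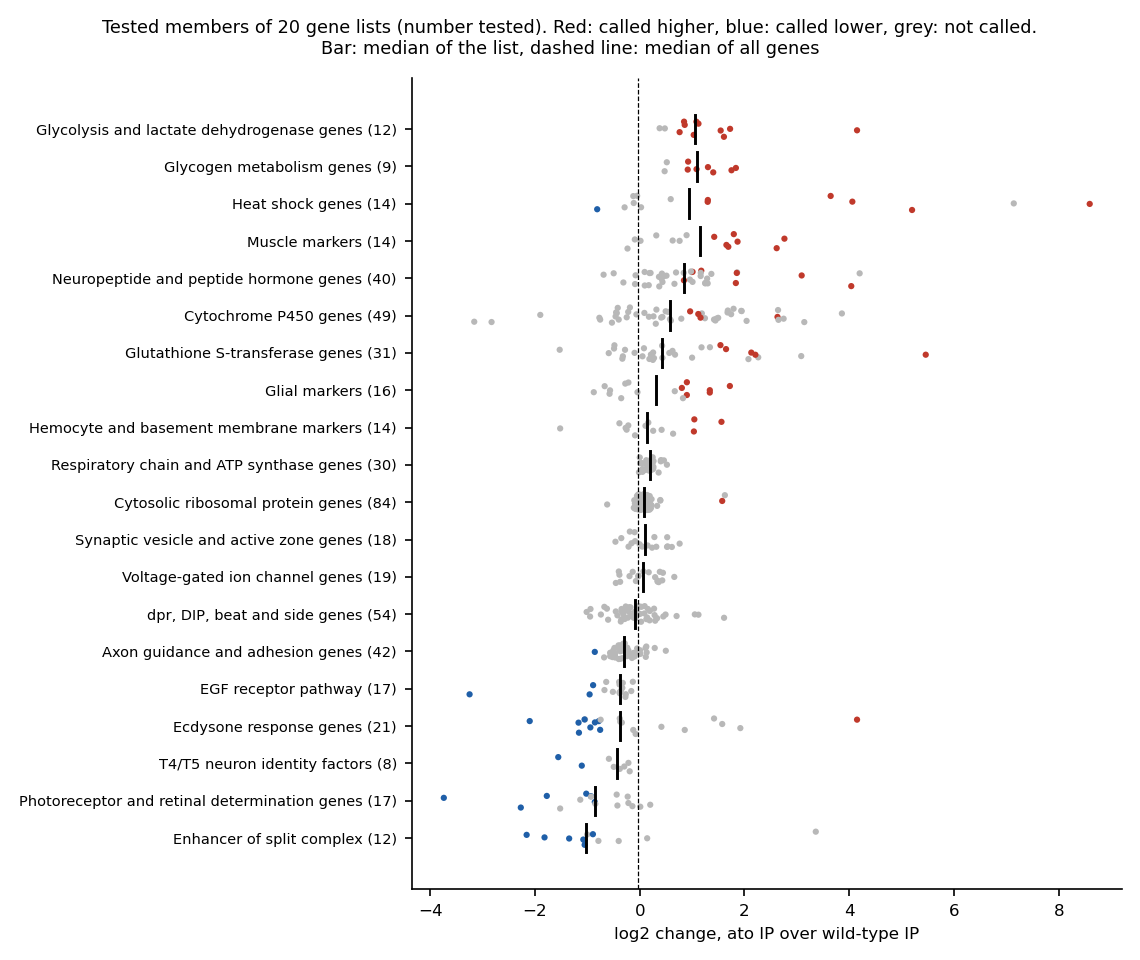
Log2 change, ato IP over wild-type IP (horizontal), of each tested member of 20 gene lists (vertical, number tested in brackets), with members called higher in red, lower in blue and others in grey, a bar at the list's median and a dashed line at the median of all genes. The Enhancer of split and retinal lists have medians of -1.03 and -0.86, the glycolysis and muscle lists 1.06 and 1.16.

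The whole-brain inputs showed most of the same changes. Per the protocols they were taken from the same homogenates as the IPs, so this is no independent observation of the genotype. The part of differences between preparations in the changes shared by both fractions was not tested. In the inputs edgeR called 474 genes higher (4.64%) and 239 lower (2.34%) in ato, 6.97% in all. Of the 288 genes higher in the IPs 225 were also higher in the inputs, which is 78.1% of the IP list and 47.5% of the input list. Of the 192 lower in the IPs 108 were lower in the inputs, 56.2% of the IP list and 45.2% of the input list. For the genes called in the IPs, 286 of 288 and 188 of 192 had the same sign in the inputs, and 0 had an opposite call. These genes were selected by their call in the IPs, so their shares and medians are a description only. Their median log2 change was 1.56 in the IPs and 1.59 in the inputs for the higher genes (1.58 with changes against 0 counts set at their floor), and -0.96 in the IPs and -0.79 in the inputs for the lower genes (-0.78).

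For gl the values were 4.28 and 5.15 CPM in the ato inputs, against 82.7 and 75.6 CPM in the wild-type inputs, a change as large as that in the IPs (-4.06 ± 0.26, adjusted p = 9.3e-08). ImpL3 likewise had 396 and 339 CPM in the ato inputs, against 26 and 18.7 CPM in the wild-type inputs (4.04 ± 0.22, adjusted p = 1.46e-08). Other genes were called in the IPs alone. Eip74EF had 43.9 and 37.5 CPM in the ato inputs, against 52.7 and 57.2 CPM in the wild-type inputs (-0.43 ± 0.19, adjusted p = 0.202), and GstD3 had 43.2 and 39.5 CPM in the ato inputs, against 33.7 and 30.7 CPM in the wild-type inputs (0.36 ± 0.21, adjusted p = 0.346). The change of kuz in the inputs was near 0 (-0.06 ± 0.18, adjusted p = 0.882). A call in the IPs and none in the inputs is no test of a difference, and the test of that difference, the interaction of genotype and fraction, called 0 of 10224 genes with edgeR. At an unadjusted p below 0.05 it held 436 genes, limma-voom called 0 and the DESeq2 Wald test called 1 gene lower. Without wild-type input replicate 1 it called 3 genes lower and without wild-type IP replicate 2 it called 2. With each preparation (the IP and input of 1 genotype and replicate number) as a block, an alternative chosen after seeing the data, it called 10 genes lower and 0 higher. Among the 10 were the matrix metalloprotease gene Mmp1 (difference of log2 changes -1.38 ± 0.28, adjusted p = 0.00217) and the transferrin gene Tsf1 (-1.32 ± 0.28, adjusted p = 0.00544). Tsf1 was higher in ato in both fractions, by 1.79 in the IPs and 3.13 ± 0.28 in the inputs on the log2 scale, and so by less in the IPs.

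**Figure D5:**
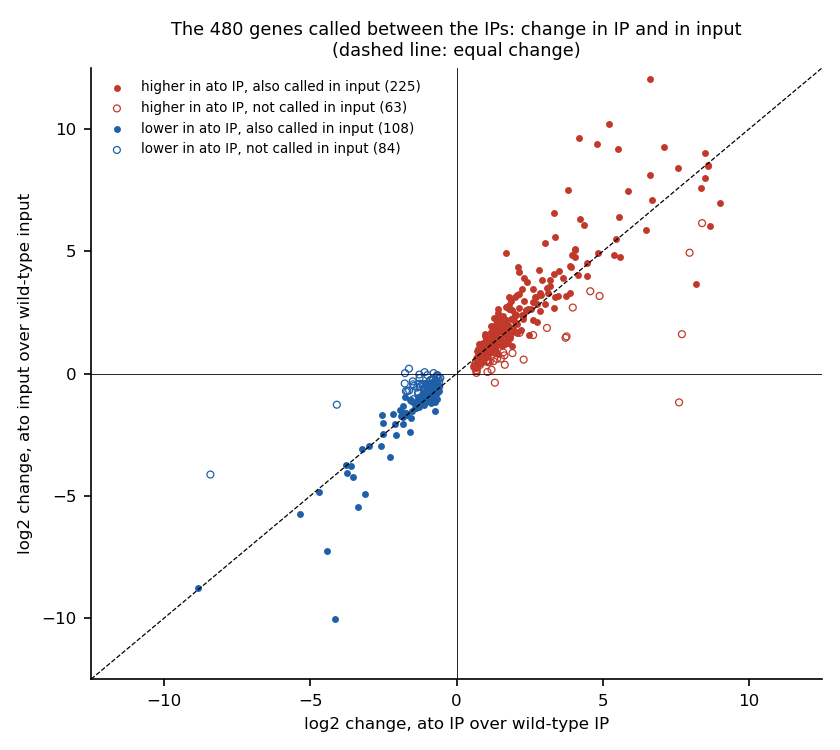
Log2 change in the inputs (vertical) against log2 change in the IPs (horizontal), both ato over wild type, for the 480 genes called between the IPs, with filled points for those also called in the inputs (225 higher, 108 lower) and open points for the others (63 and 84). Most points lie near the dashed line of equal change, and those beyond about 6 in either direction include genes with 0 counts in a group, for which the fitted change is no measured fold.

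Called genes were spread over all chromosome arms. On the third chromosome, which carries ato, 269 of 4511 tested genes were called (5.96%), against 209 of 5654 on the other arms (3.70%). Within 1 Mb of ato 7 of 192 genes were called (3.65%), and further than 5 Mb from it on the same arm 110 of 1615 were (6.81%). The 7 near genes were pyd3, CG2641, CG8036 and CG8369, which were higher, and ImpE3, grn and CG16733, which were lower. Among them CG8369 had 54.8 and 57.5 CPM in the ato IPs, against 12.3 and 17.8 CPM in the wild-type IPs (1.90 ± 0.24, adjusted p = 0.000116), and CG16733, named St2 today, had 16 and 8.69 CPM in the ato IPs, against 33.4 and 41.9 CPM in the wild-type IPs (-1.61 ± 0.27, adjusted p = 0.0016). Both were separate between the genotypes. The gene pyd3 changed by 2.71 ± 0.65 (adjusted p = 0.0206), a call lost with run L1 alone (adjusted p = 0.41), without ato IP replicate 2 (0.112) and without wild-type IP replicate 2 (0.0838). Effects of ato1 and of other variants on its chromosome cannot be told apart in this design.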

How the data were processed

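Total RNA of larval brain preparations was sequenced as ribosome immunoprecipitates and inputs, in 4 runs per library. The deposited values are raw read counts per gene and run. Per the submitters' processing notes the tools were TopHat2 2.0.12 and featureCounts 1.4.4, and per the file headers exons of a dm3 gene annotation were counted at a minimum mapping quality of 5, with no option for strand. Reads of antisense or overlapping genes therefore cannot be told apart, and near-identical copies may share or lose reads.

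The 4 runs of each of 8 libraries were summed. Genes were filtered with filterByExpr, normalized with TMM and fitted with edgeR 4.0.16 (quasi-likelihood F test, R 4.3.3) in 1 model of 4 groups. P-values were adjusted over 10224 genes with the Benjamini-Hochberg method, at a threshold of 0.05. The SE is the absolute log2 change divided by the square root of F, and rests on n = 2 libraries per group. An exact permutation test of 2 libraries against 2 cannot go below 0.33, so no single-gene permutation test was made. The scripts were tested on simulated data. Folds against groups at 0 counts use a floor of 3 counts summed over the group, which covers counting error only. Of the gene names 249 had no match in the current RefSeq names and keep the deposited spelling. The labels do not say whether replicate numbers pair ato with wild-type libraries, so the main fit used no block there. Per the labels' protocols, 10% of a homogenate became the input and the remainder the IP, but they do not say outright that equal numbers mark 1 homogenate. Deviations of same-numbered IP and input correlated across genes at 0.17 in ato and 0.0963 in wild type. A block by preparation was therefore added for the interaction of genotype and fraction, while it cannot be used between genotypes, in which preparations are nested.

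Named genes were the 15 largest changes in each direction with at least 10 CPM in the higher group and no overlap, up to 4 called members per list and direction, ato, RpL10Ab, roX1, roX2 and the T4/T5 factors, up to 3 called genes near ato, and the 5 called genes in each direction with the highest CPM. Other members of a list are named where a list is described. The comparison, 42 gene lists and the tests were chosen with earlier results of these data known, and 3 further lists (glycolysis, glycogen, neuropeptides) after their values had been seen. Alternatives were DESeq2 1.42.0 size factors and Wald test, limma 3.58.1 voom, other filters, run L1 alone, a replicate block, a length correction, the 4 IP libraries alone and omission of each library.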

Additional observations from a re-analysis of the deposited data

How the results depend on the processing

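Between the IPs, the counts of 288 higher and 192 lower genes became 452 and 356 with no filter, in which more genes were tested, and 267 and 114 with the 4 IP libraries alone. DESeq2 size factors gave 328 and 149, the DESeq2 Wald test 420 and 254, limma-voom 262 and 197, the 5 CPM filter 283 and 179, run L1 alone 225 and 132 and the length correction 400 and 263. Omission of 1 library gave 179 to 324 higher and 55 to 253 lower genes, the lowest both without ato IP replicate 2, and the cause was not tested. All 480 called genes kept their sign in every omission. With the replicate number as a block there were 327 and 232. Same-numbered ato and wild-type IPs deviated together with a correlation of 0.06 across genes, and the labels do not say that a number marks a shared batch. The inputs had 239 to 603 higher and 82 to 386 lower genes under omission of 1 library, and 390 lower with no filter, 157 with run L1 alone and 372 with the length correction, against 239. The interaction had 0 genes called lower, 1 with the DESeq2 Wald test, 9 with no filter, 10 with the replicate block by preparation, which was chosen after seeing the data, and 0 to 3 under omissions, and 0 called higher throughout. The cause was not tested. Of 113 called genes named by the rule 55 kept their call under every alternative and 81 under all but the omissions, and ato IP replicate 2 ended the most (40). The change of RpL10Ab ran from -0.19 to 0.47 and that of SoxN from -0.44 to 0.063 under omissions, so both changed sign. A comparison of promoter motifs was not run. At 7780123 to 8904370 counts per IP library, genes under about 1 CPM rest on a handful of reads.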

Other observations

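Neuropeptide and peptide hormone genes, a list added after its values had been seen and so given no test as a list, were higher in 7 of 40 tested cases and lower in 0, with a median log2 change of 0.84. The neuropeptide-like precursor gene Nplp2 had 153 and 253 CPM in the ato IPs, against 4.24 and 21.2 CPM in the wild-type IPs (4.04 ± 0.43, edgeR adjusted p = 2.47e-05). The wild-type libraries differed about 5-fold from each other, yet both lay far below both ato libraries. Proct, which encodes the precursor of proctolin, had 41.2 and 49.2 CPM in the ato IPs, against 12.9 and 12 CPM in the wild-type IPs (1.85 ± 0.24, adjusted p = 0.000142). The others were Nplp4 (3.09 ± 0.56), capa (1.84 ± 0.35), Leucokinin (1.01 ± 0.26), sNPF (0.84 ± 0.23) and Ilp5 (1.18 ± 0.33). The count was 3 without ato IP replicate 2 and 4 without wild-type IP replicate 1 or with run L1 alone. Nplp4 lost its call without ato IP replicate 1 (adjusted p = 0.0588), capa without ato IP replicate 2 (adjusted p = 0.0682), Leucokinin with run L1 alone (adjusted p = 0.0914), without ato IP replicate 1 (0.0539), without ato IP replicate 2 (0.153) and without wild-type IP replicate 1 (0.216), sNPF with limma-voom (adjusted p = 0.0549), with the 4 IP libraries fitted alone (0.0683), with run L1 alone (0.118), without ato IP replicate 2 (0.448), without wild-type IP replicate 1 (0.134), without wild-type IP replicate 2 (0.118), without wild-type input replicate 1 (0.0656) and without wild-type input replicate 2 (0.0648) and Ilp5 with the 5 CPM filter (adjusted p = 0.0512), with the length correction (0.0948), with limma-voom (0.137), with the 4 IP libraries fitted alone (0.153), with run L1 alone (0.323), without ato IP replicate 1 (0.0541), without ato IP replicate 2 (0.297), without ato input replicate 1 (0.0541), without ato input replicate 2 (0.0517), without wild-type IP replicate 1 (0.092), without wild-type IP replicate 2 (0.175), without wild-type input replicate 1 (0.0611) and without wild-type input replicate 2 (0.0619).

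Among the called genes with the most reads, the capsid-like gene Arc1 had 2048 and 2031 CPM in the ato IPs, against 1169 and 827 CPM in the wild-type IPs (1.03 ± 0.19, adjusted p = 0.0032). The ADP/ATP translocase gene sesB had 2065 and 1938 CPM in the ato IPs, against 1129.7 and 1271 CPM in the wild-type IPs (0.74 ± 0.15, adjusted p = 0.00885), a call lost without ato IP replicate 1 (adjusted p = 0.0518). The odorant-binding protein gene Obp44a had 973 and 799.8 CPM in the ato IPs, against 369 and 613 CPM in the wild-type IPs (0.85 ± 0.24, adjusted p = 0.0485), a call lost with the 5 CPM filter (adjusted p = 0.054), without ato IP replicate 1 (0.179), without ato IP replicate 2 (0.0624) and without wild-type IP replicate 1 (0.223). All 3 were higher in both ato libraries than in either wild-type library.

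Of 33 cuticle protein genes tested, Cpr47Eb (3.80 ± 1.00) and Cpr49Ag (2.62 ± 0.67) rose and Cpr49Ac (-1.62 ± 0.32) fell, with a median of 0.98. Another 60 of the 93 listed did not pass the filter on low counts, which sparse genes can pass through the group where they are high. The count and the median are therefore a description and do not stand for the list. The whole list summed to 219 and 141 CPM in the ato IPs, against 186 and 192 CPM in the wild-type IPs, which overlapped. Cpr47Eb lost its call without ato IP replicate 1 (adjusted p = 0.284), without ato IP replicate 2 (0.0825), without wild-type IP replicate 1 (0.144) and without wild-type IP replicate 2 (0.132), Cpr49Ag without ato IP replicate 1 (adjusted p = 0.056), without ato IP replicate 2 (0.259) and without wild-type IP replicate 1 (0.157) and Cpr49Ac without ato IP replicate 2 (adjusted p = 0.0879). Of 62 small nuclear and nucleolar RNA genes tested, 1 rose, no more than the 2.82% called higher over all tested genes. It was snoRNA:Psi18S-1854c (3.76 ± 0.86), a call lost with limma-voom (adjusted p = 0.117), without ato IP replicate 1 (log2 change 1.91) and without wild-type IP replicate 1 (3.47).

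Among tested genes ordered by chromosome and start, genes called in the same direction followed each other in 36 runs that held 77 genes. Genes that were not tested were skipped, so the members of a run need not be adjacent. In the run of CG34377 and CG13858, the current name of CG13858 is CG34377, so this run counts a single current gene as a pair. The 5 runs of 3 genes were yip7, Jon65Aiv and Jon65Aiii; Hsp70Ba, alphagamma-element:CR32865 and Hsp70Bc; Hsc70-2, CG31157 and CG7966; m2, HLHm3 and m4; and CG11594, Gr64a and Gr64c. Several of these hold gene copies of similar sequence, between which the division of reads is uncertain, and no chance level was computed.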
